A study of Mus musculus with 3 samples.

Results

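The imprinted Dlk1-Dio3 locus on mouse chromosome 12 carries a dense series of miRNA genes, and 35 mature miRNAs of this locus are described here in sorted Müller glia (MG), the main glia of the retina. They were chosen by locus and miRBase identifier, although earlier results of these data were known. Of the 35, 34 had a row among the 602 miRNAs of the deposited table and 1 (MIMAT0000377, miR-299) had none. Expression was measured on a NanoString nCounter panel, in which tagged miRNA molecules are counted one by one without amplification.

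All mice carried Rlbp1-CreER, which drives an inducible Cre from a promoter active in MG, and a floxed-stop tdTomato reporter. Tamoxifen (75 mg/kg) was injected in adult mice, on 3 days according to the sample labels and on 4 according to the methods, so every group shares the Cre, the reporter and the drug. The wild type sample was a pool of tdTomato+ cells from 40 undamaged retinas. The light damage (LD) sample pooled 44 retinas taken 7 days after 8 h of light at 10000 lux, from mice additionally crossed to the albino Swiss Webster strain. The Dicer-cKO sample pooled 26 retinas of mice with floxed Dicer alleles (Dicerf/f), 1 month after the deletion. Dicer is the enzyme that releases mature miRNAs from their precursors. Each condition is therefore 1 sample, without replicates. No test and no p-value can be obtained, and the 95% intervals given below are exact and cover counting error only. The wild type and Dicer-cKO data stem from an earlier study and were normalized together with the LD data. Light damage therefore cannot be told apart from the mouse strain and the study. In pooled cells, fewer cells of a type and less RNA per cell cannot be told apart either.

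The genes Dlk1, Rtl1 and Dio3 of this locus are transcribed from the paternal chromosome. The non-coding transcripts Meg3, Rian and Mirg and the miRNAs are transcribed from the maternal chromosome and are thought to arise from long shared transcripts. The miRNAs are known for high expression in the embryo, the placenta and the adult brain, mainly in neurons. miR-134 limits the size of dendritic spines, and miR-127 and miR-136 lie opposite to Rtl1 and can cut its mRNA.

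The miRNAs that the results turn on are shown first, and they include close neighbors and close relatives. The sequences are from RefSeq (GRCm38.p6), 5′ to 3′, with the seed (bases 2 to 8), which pairs with target mRNAs, in capitals. All of them lie on the plus strand.
miR-376a-3p: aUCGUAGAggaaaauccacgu
miR-376b-3p: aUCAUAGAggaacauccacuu
miR-136-5p: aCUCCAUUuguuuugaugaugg
miR-539-5p: gGAGAAAUuauccuuggugugu
miR-382-5p: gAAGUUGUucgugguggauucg
miR-434-3p: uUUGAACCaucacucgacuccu

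miR-376a-3p and miR-376b-3p are relatives that share 18 of 21 bases. Counted from the 5′ end of miR-376a-3p, they differ by G4A, A13C and G20U, of which G4A lies in the seed. Of the 35 listed miRNAs, 31 were matched by name to a RefSeq mature sequence, and these had 31 different seeds, so that no seed occurred more than once. The Mir376a hairpin (chr12:109723781-109723848) and the Mir376b hairpin (chr12:109723458-109723539) start 323 bases apart, and Mir376c (chr12:109722718-109722803) starts 1063 bases before Mir376a. Mir539 (chr12:109728129-109728202) and Mir382 (chr12:109733771-109733846) follow downstream, and all of them lie between the annotated Rian and Mirg genes. Mir434 (chr12:109594506-109594599) and Mir136 (chr12:109595327-109595388) start 821 bases apart within the span of Rtl1.

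The locus was weakly expressed in every sample. The deposited values are background-corrected counts scaled to 4 housekeeping mRNAs, called normalized counts below. The 34 miRNAs summed to 1473 normalized counts in the wild type (95% interval 1393 to 1556), 2293 after LD (2162 to 2432) and 2062 in the Dicer-cKO sample (1890 to 2270). All miRNAs of the panel summed to 783889, 468576 and 195642. The locus thus held 0.188% of the miRNA counts in the wild type (0.178 to 0.198), 0.489% after LD (0.461 to 0.519) and 1.06% in the Dicer-cKO sample (0.966 to 1.16), and these intervals did not overlap. The share does not depend on the housekeeping mRNAs, but it also moves with the other miRNAs.

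Before scaling, the miRNA counts of the 3 samples summed to 678751, 230245 and 44290, so that the Dicer-cKO sample was the least precise. A miRNA was taken as detected when its count before scaling exceeded the highest of the 8 negative controls of its sample. This detection limit was 23.38, 31.5 and 38.62 counts, or 27.0, 64.1 and 171 normalized counts, in wild type, LD and Dicer-cKO MG. Of the 34 miRNAs, 15 were above it in the wild type (44.1%, compared with 35.5% of the panel), 4 after LD (11.8% compared with 18.8%) and 3 in the Dicer-cKO sample (8.82% compared with 12.1%). The limit rests on 1 control that was highest in all samples. With the second highest control instead, an alternative added after seeing the data, 18, 15 and 13 of the 34 were detected (52.9%, 44.1% and 38.2%, compared with 39.0%, 31.6% and 35.7% of the panel). In the Dicer-cKO sample this alternative limit was 3 counts before scaling, the floor set for any limit. The LD and Dicer-cKO shares thus lay below those of the panel with 1 limit and above them with the other.

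Over the 3 samples, 16 of the 34 miRNAs were above the limit at least once (47.1%, compared with 37.0% of the panel) and 18 never were. Of the 18, 7 stood at the lowest value of the table in all samples. Among those below the limit in every sample was miR-134-5p (MIMAT0000146), with 22 normalized counts in the wild type, 2 after LD and 4 in the Dicer-cKO sample. The values 2 and 4 are the lowest of the LD and Dicer-cKO samples. miR-379-5p (MIMAT0000743), the first member of the large distal group, was at the lowest value throughout.

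**Figure D1:**
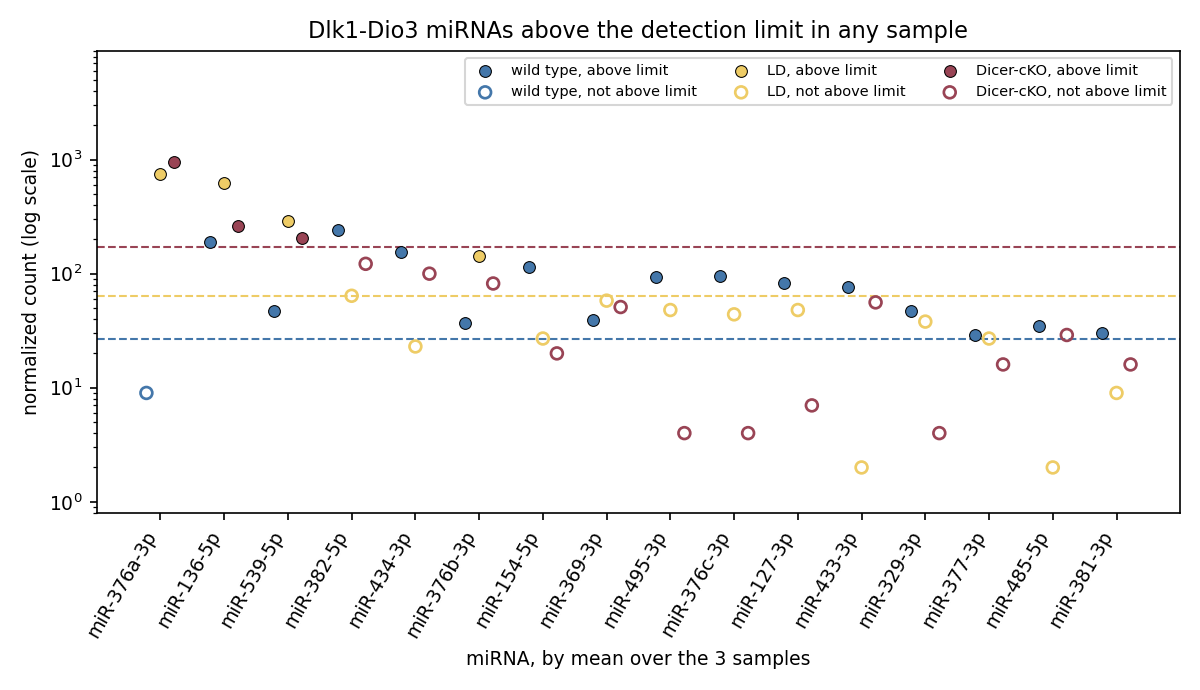
Normalized counts (log scale) of the 16 miRNAs above the detection limit in at least 1 sample, ordered by their mean; each point is 1 pooled sample, filled above and open at or below its sample's limit (dashed lines at 27.0, 64.1 and 171). miR-376a-3p is open in wild type and filled in both other samples, whereas 12 miRNAs are filled in wild type only with this limit, and 0 of these 12 with the second highest control as the limit.

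miR-376a-3p (MIMAT0000740) was below the detection limit in the wild type and well above it in both other samples. It had 9 normalized counts in the wild type, 744 after LD (95% interval 671 to 825) and 962 in the Dicer-cKO sample (840 to 1100). Taken against the wild type limit, it was at least 27.6-fold higher after LD and at least 35.6-fold higher in the Dicer-cKO sample. With values under a limit taken at the limit, these bounds exceeded every other ratio or bound of the panel, over 223 miRNAs detected in the wild type or after LD and 216 in the wild type or the Dicer-cKO sample. The next were ratios of 20.02 (MIMAT0005857) after LD and 12.05 (MIMAT0000541, the photoreceptor miR-96) in the Dicer-cKO sample. Also among the highest were the immune miR-142-3p (9.175 after LD and 7.7 in the Dicer-cKO sample) and the neuronal miR-124 (8.94 in the Dicer-cKO sample). So were MIMAT0011287 (at least 8.04 after LD) and MIMAT0004883 (8.48 in the Dicer-cKO sample). Other immune and neuronal miRNAs were lower after LD, such as miR-150 (at most 0.521) and miR-129-3p (0.697). Both were higher in the Dicer-cKO sample (5.67 and 3.23). The ranking orders bounds and not true ratios, since a miRNA undetected in the wild type, such as MIMAT0003496 with 1 normalized count there and 257 after LD, enters only with its bound (9.52). Only 1 other miRNA of the panel was undetected in the wild type and detected in both other samples, with 1, 87 and 188 normalized counts. The rise was also present before scaling, where the counts were 7.375, 365.5 and 217.625. Between the LD and Dicer-cKO samples the ratio was 1.29 (1.09 to 1.53, Dicer-cKO over LD), but it turned to 0.790 with Gapdh alone and 0.595 without housekeeping scaling.

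miR-539-5p (MIMAT0003169) had 47 normalized counts in the wild type, 288 after LD and 206 in the Dicer-cKO sample. It was 6.13-fold higher after LD (4.38 to 9.12) and 4.38-fold higher in the Dicer-cKO sample (2.89 to 7.04). miR-136-5p (MIMAT0000148) had 190, 622 and 264. Its ratio to wild type was 3.27 after LD (2.71 to 4.0) and 1.39 in the Dicer-cKO sample (1.02 to 1.89), just beyond counting error. Without housekeeping scaling the latter turned to 0.363. In the deposited values both were lowest in the wild type and highest after LD. For miR-136-5p the ratio of Dicer-cKO to LD was 0.424 (0.317 to 0.563), and for miR-539-5p it was 0.715 (0.506 to 1.01), within counting error. The order of these samples depended on the scaling: the Dicer-cKO value of miR-539-5p exceeded that of LD under 5 of 9 other scalings, and that of miR-136-5p under 1. miR-376b-3p (MIMAT0001092) had 37, 143 and 82 normalized counts. It was 3.86-fold higher after LD (2.50 to 6.05), and in the Dicer-cKO sample it was below the limit.

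These rises changed what the locus contributed. miR-376a-3p, miR-136-5p and miR-539-5p together held 16.7% of the summed count of the 34 miRNAs in the wild type, 72.1% after LD and 69.4% in the Dicer-cKO sample. The 3 were named here after their values were seen. Of the other 31 miRNAs, only miR-376b-3p was above the limit after LD, and none was in the Dicer-cKO sample. These 31 summed to 1227, 639 and 630 normalized counts. Under 9 other scalings their ratio to wild type ran from 0.296 to 1.34 after LD (above 1 under 2) and from 0.134 to 2.11 in the Dicer-cKO sample (above 1 under 4), so that no direction of this sum holds throughout. The highest count among the members was that of miR-382-5p in the wild type and that of miR-376a-3p in both other samples, although counts of different probes do not rank the miRNAs by their true level. The summed count was 1.56-fold that of wild type after LD (1.44 to 1.69) and 1.40-fold in the Dicer-cKO sample (1.26 to 1.57). Without miR-376a-3p alone, it was 1.06-fold and 0.751-fold. With all 34, the ratio fell below 1 after LD with Rpl19 alone (0.910) and in both samples without housekeeping scaling (0.883 and 0.366).

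**Figure D2:**
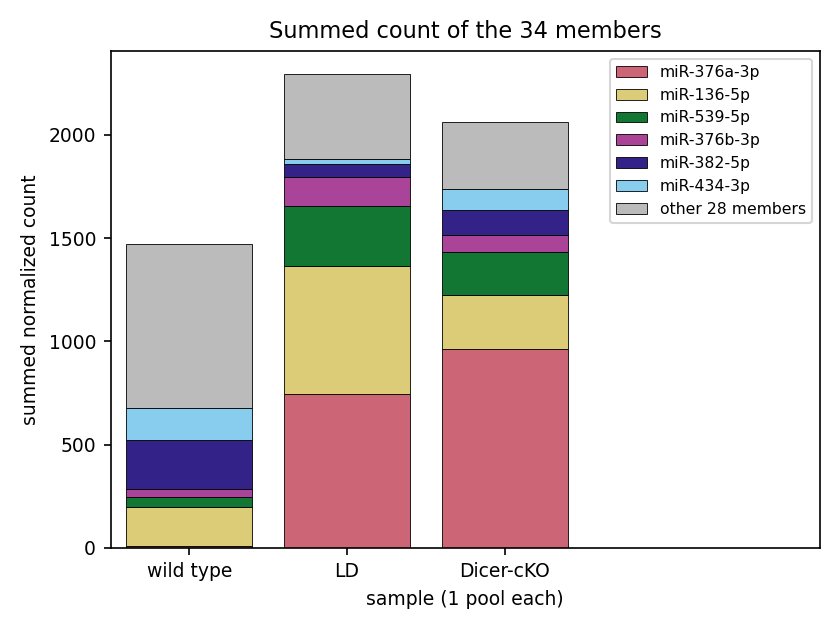
Summed normalized count of the 34 miRNAs in each pooled sample, stacked by miRNA, with the 28 other members in grey. The sums are 1473, 2293 and 2062, and the miR-376a-3p segment grows from 9 to 744 and 962 while the grey segment is tallest in the wild type under this scaling.

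Most members detected in the wild type had lower deposited values elsewhere, as most miRNAs of the panel had. Of these 15, 11 had lower values in both the LD and the Dicer-cKO sample (73.3%) and 4 had higher values in both. Over the 214 miRNAs of the panel detected in the wild type, 66.8% were lower in both and 11.2% higher in both. Many of these values are under the limits, and under 9 other scalings the number of members lower in both ran from 1 to 12 (panel 26.2% to 86.9%). The LD and Dicer-cKO samples are compared with the same wild type sample, so the 2 directions are not independent. Members and panel miRNAs were both chosen here by detection in the wild type, which by itself favors lower values elsewhere. In 12 of the 15 the wild type sample was the only one above the limit, which was also the case for 107 of the 214 miRNAs of the panel. This count rests on the limit. With the second highest control as the limit, 0 of these 12 members and 30 of these 107 miRNAs were above it in the wild type only.

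miR-382-5p (MIMAT0000747) had 240 normalized counts in the wild type, 64 after LD, exactly at the limit, and 122 in the Dicer-cKO sample, below the limit. It was at least 3.74-fold lower after LD and at least 1.41-fold lower in the Dicer-cKO sample. miR-434-3p (MIMAT0001422) had 154, 23 and 100 and was at least 2.40-fold lower after LD. miR-154-5p (MIMAT0000164) had 115, 27 and 20 and was at least 1.79-fold lower after LD. For all of these the deposited value was highest in the wild type. With this limit no fold can be given for miR-434-3p and miR-154-5p in the Dicer-cKO sample, since 171 exceeds their wild type values. With the second highest control as the limit, miR-434-3p was 6.70-fold lower after LD and 1.54-fold lower in the Dicer-cKO sample. miR-154-5p was then 4.26-fold and 5.75-fold lower. The LD bounds depended on the scaling. miR-434-3p was lower under 8 of 9 other scalings, with a ratio of at most 0.876 with Gapdh alone and no fold with the same total without miR-720, and it was no longer 2-fold lower under 5. miR-154-5p was lower under 7, with no fold under the other 2.

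miR-376c-3p (MIMAT0003183), the third member of its family on the panel, had 95, 44 and 4 normalized counts. Its deposited value was highest in the sample in which that of miR-376a-3p was lowest. miR-495-3p (MIMAT0003456) had 93, 48 and 4, and miR-127-3p (MIMAT0000139), opposite to Rtl1, had 82, 48 and 7. After LD these 3 were at least 1.48-fold, 1.45-fold and 1.28-fold lower. miR-433-3p (MIMAT0001420) had 77, 2 and 56 and was at least 1.20-fold lower after LD. These bounds depended on the scaling: a fold below 1 remained under 5 of 9 other scalings for miR-376c-3p and miR-495-3p and under 4 for miR-127-3p and miR-433-3p, and none could be given under the others. Taking the second highest control as the limit, miR-376c-3p, miR-495-3p and miR-127-3p were 2.16-fold, 1.94-fold and 1.71-fold lower after LD. In the Dicer-cKO sample they were at least 7.16-fold, 7.01-fold and 6.18-fold lower. miR-433-3p was then at least 6.88-fold lower after LD and 1.38-fold lower in the Dicer-cKO sample. The 95% intervals overlapped for miR-127-3p after LD and miR-433-3p in the Dicer-cKO sample. miR-369-3p (MIMAT0003186) had 39, 58 and 51. The remaining members detected in the wild type were miR-329-3p, miR-485-5p, miR-381-3p and miR-377-3p, with 29 to 47 normalized counts there, 2 to 38 after LD and 4 to 29 in the Dicer-cKO sample. miR-485-5p is known to repress a synaptic vesicle protein in neurons. For miR-369-3p, miR-329-3p, miR-485-5p, miR-381-3p and miR-377-3p no fold against LD or Dicer-cKO can be given with this limit. With the second highest control as the limit, miR-369-3p was 1.49-fold higher after LD and 1.31-fold higher in the Dicer-cKO sample. Its 95% intervals overlapped, with 26.2 to 53.5, 37.9 to 82.4 and 27.4 to 92.7 normalized counts. Before scaling, its count was highest in the wild type (33.375, 28.5 and 11.625). The others were lower in both, from 1.07-fold (miR-377-3p) to at least 3.13-fold (miR-485-5p) after LD. In the Dicer-cKO sample they ran from 1.21-fold (miR-485-5p) to at least 3.54-fold (miR-329-3p) lower. Their 95% intervals overlapped those of the wild type, except for miR-485-5p after LD and miR-329-3p in the Dicer-cKO sample. The folds with this second limit were computed under the authors' scaling only.

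After LD, 16 members were detected in at least 1 of the samples compared, and a fold could be given for 11 of them. At least 2-fold higher were 4 of the 16 (25.0%), compared with 13.5% of the 223 miRNAs of the panel, and at least 2-fold lower were 2 of the 16 (12.5%), compared with 21.1%. The 4 were miR-376a-3p, miR-539-5p, miR-376b-3p and miR-136-5p, and the 2 were miR-382-5p and miR-434-3p. A call of lower needs a wild type value of at least 128 normalized counts, which only 3 members reached, compared with 96 miRNAs of the panel, of which 47 were lower. In the Dicer-cKO sample a fold could be given for only 4 of 16. At least 2-fold higher were 2 of the 16 (12.5%), miR-376a-3p and miR-539-5p, compared with 9.26% of the 216 miRNAs of the panel. A call of lower needs a wild type value of 341 or more here, and the highest member had 240. No member could thus be called lower, and the panel's 23.1% has no counterpart in the locus. miR-376a-3p is among the 16 only through the samples in which it is high, so that it could not but be counted as higher. The split of higher against lower calls depended on the scaling. After LD it ran from 3 higher and 7 lower members without housekeeping scaling (panel 8.52% and 43.9%) to 4 and 0 with the same total miRNA count without miR-720, a tRNA fragment (panel 26.5% and 4.04%). In Dicer-cKO MG it ran from 1 and 6 (panel 2.31% and 50.0%) to 3 and 0 (panel 16.2% and 2.31%). With the second highest negative control as the limit, 9 of 21 were at least 2-fold lower after LD (panel 53.2%) and 7 of 20 in the Dicer-cKO sample (panel 45.8%), while 4 of 21 and 4 of 20 were higher (panel 12.8% and 15.4%).

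**Figure D3:**
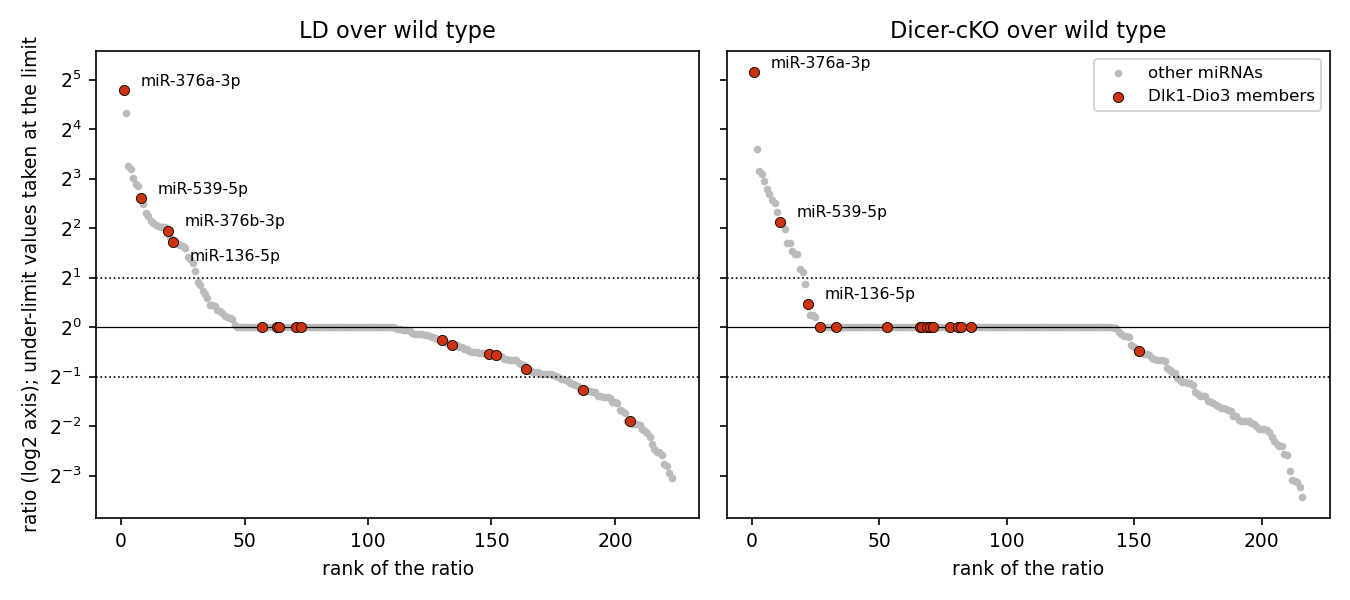
Ratio to wild type (log2 axis, dotted lines at 2-fold) of every miRNA of the panel detected in at least 1 of the 2 samples compared, in order of the ratio, with members of the locus in red; values under a limit are taken at the limit, and a ratio of 1 includes miRNAs without an assessable fold. miR-376a-3p comes first in both comparisons, with lower bounds of 27.6 and 35.6, whereas 5 members on the left and 12 on the right lie at 1 because no fold could be given.

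The median log2 change (pseudocount 1) of the 15 members detected in the wild type was -0.94 after LD and -0.82 in the Dicer-cKO sample, compared with -1.36 and -1.39 for the 214 miRNAs of the panel chosen in the same way. The sign of the members' median turned under 2 of 9 other scalings after LD (0.40 and 0.12) and under 4 in the Dicer-cKO sample (0.18 to 1.16). Both medians rest on deposited values that are often under the limit. With such values taken at the limit, the median of the members was 0 in both comparisons, and that of the panel was -0.07 after LD and 0 in the Dicer-cKO sample. Choosing miRNAs by detection in the wild type also favors negative medians. Over miRNAs detected in either sample compared, the deposited values gave -0.85 after LD and -0.72 in the Dicer-cKO sample for 16 members. The panel had -1.31 and -1.36.

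Members of both patterns were found at both ends of the locus. The proximal group comprised 9 members from 45.1 to 77.3 kb after the start of Meg3, in the spans of Rtl1 and Rian, and summed to 540, 705 and 447 normalized counts in wild type, LD and Dicer-cKO MG. The distal group comprised 25 members from 168 to 203 kb and summed to 933, 1588 and 1615. In the proximal group, miR-136-5p was 3.27-fold higher after LD, whereas miR-434-3p, 821 bases away, was at least 2.40-fold lower under the authors' scaling and lower under 8 of 9 others. In the distal group, miR-376b-3p and miR-376a-3p were higher after LD, and miR-376c-3p, which starts 1063 bases before miR-376a-3p, was at least 1.48-fold lower under the authors' scaling and under 5 of 9 others was lower as well, with no fold to be given under the remaining 4.

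**Figure D4:**
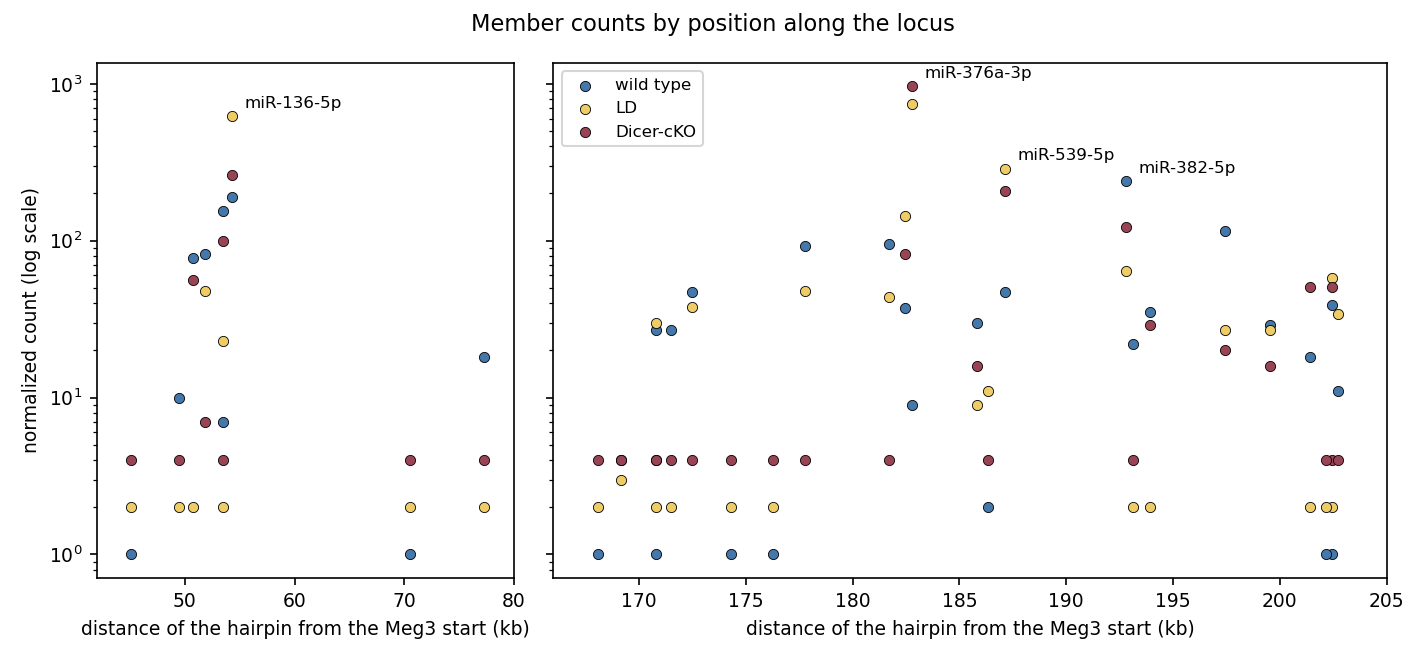
Normalized counts (log scale) of the 34 miRNAs against the distance of their hairpin from the Meg3 start in kb, for the proximal group (left) and the distal group (right), with 1 point per miRNA and sample. The tallest points, at miR-376a-3p, miR-539-5p and miR-136-5p, stand beside hairpins whose wild type point is the highest.

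For 3 hairpins both arms were on the panel. Of Mir434, the 3p arm had 154, 23 and 100 normalized counts and the 5p arm (MIMAT0001421) 7, 2 and 4. Of Mir369, the 3p arm had 39, 58 and 51, and the 5p arm was at the lowest value in all samples. Both arms of Mir380 were at or below the limit, with 27, 2 and 4 for the 5p arm and 1, 30 and 4 for the 3p arm. After LD and in the Dicer-cKO sample all of these values were at or below the limit.

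The 4 members detected after LD had a GC content of 36.4 to 42.9% (median 39.5). The 10 with a sequence among the 12 detected in the wild type only ranged from 23.8 to 59.1% (median 45.5), so that the groups overlapped. The median over 1679 RefSeq mature miRNAs of the mouse was 52.2%.

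The marker miRNAs of the sorted cells and of other cell types were counted with the same limits. The 8 MG miRNAs (miR-204, miR-125b, miR-9, miR-181a, miR-99a, miR-100, miR-23a and miR-135a) were all detected in every sample and summed to 561148, 154416 and 84228 normalized counts. miR-204 had the highest count of them throughout. The 10 neuronal miRNAs summed to 1926, 6039 and 13476, most of it miR-124. Of them, 5 were detected in the wild type, 5 after LD and 3 in the Dicer-cKO sample. miR-124, a miRNA known to be restricted to neurons, had 1354, 5506 and 12106. miR-129-3p had 317, 221 and 1024 and was thus lower after LD than in the wild type, as was miR-132. Of the list, miR-128, miR-212, miR-218 and miR-219 were not above the limit in any sample. The 3 photoreceptor miRNAs (miR-183, miR-96 and miR-182) summed to 650, 1042 and 5348, led by miR-183 with 363 in the wild type and by miR-96 with 626 and 3433 in the other samples. miR-182 was not above the limit in any sample.

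The 7 immune cell miRNAs summed to 482, 1149 and 2180. Of these miR-142-3p had 40, 367 and 308, and its counterpart miR-142-5p 216, 296 and 856. miR-146a had 100, 414 and 277, and miR-150 had 123, 36 and 697. miR-142-3p and miR-146a were highest after LD. The immune miRNAs miR-155, miR-223 and miR-511 were not above the limit in any sample. Of these, miR-223 had 1, 32 and 34. It exceeded the limits set by the second highest control after LD (11.2) and in the Dicer-cKO sample (13.3). The 3 vessel miRNAs summed to 226, 180 and 1314, almost all of it miR-126-3p with 196, 125 and 1267. The red blood cell miRNAs miR-451, miR-144 and miR-486 were at most 4 in every sample. In the deposited values, the neuronal, photoreceptor and immune sums and miR-376a-3p were thus lowest in the wild type and highest in the Dicer-cKO sample. Before scaling, miR-376a-3p was highest after LD (365.5 counts, compared with 217.625 in the Dicer-cKO sample). The marker sums were not followed under other scalings, which can change their order. miR-539-5p and miR-136-5p were highest after LD. So were the immune miR-142-3p and miR-146a and the neuronal miR-137 (45, 117 and 4) and miR-138 (22, 66 and 4). The other immune and neuronal miRNAs above the limit in any sample had their highest deposited value in the Dicer-cKO sample instead. They were miR-142-5p, miR-150, miR-124, miR-129-3p, miR-129-5p and miR-132. Of the members, miR-382-5p, miR-434-3p and miR-154-5p were highest in the wild type. The part of these other cell types in the counts of the locus was not tested.

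The reference used for scaling multiplies all miRNAs of a sample by 1 factor and therefore moves every ratio. The housekeeping mRNAs did not move in parallel, with Rpl19 at 742, 1269 and 701 normalized counts and Gapdh at 799, 380 and 622 in wild type, LD and Dicer-cKO MG. Under 9 other scalings, miR-376a-3p was at least 15.6-fold higher after LD and at least 9.31-fold higher in the Dicer-cKO sample in each. miR-539-5p had a ratio to wild type above 1 under all 9 as well, of 3.48 or more after LD and 1.15 or more in the Dicer-cKO sample. The 1.15, without housekeeping scaling, was within counting error. miR-376b-3p after LD was 2.19-fold to 9.93-fold and miR-136-5p 1.86-fold to 8.41-fold that of wild type. In Dicer-cKO MG, miR-136-5p was higher under 8 of the 9 and 0.363-fold without housekeeping scaling. Its ratios with B2m alone (1.07) and Actb alone (1.32) were within counting error. miR-382-5p was lower after LD under all 9 and in the Dicer-cKO sample under 5, with no assessable fold under the other 4.

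**Figure D5:**
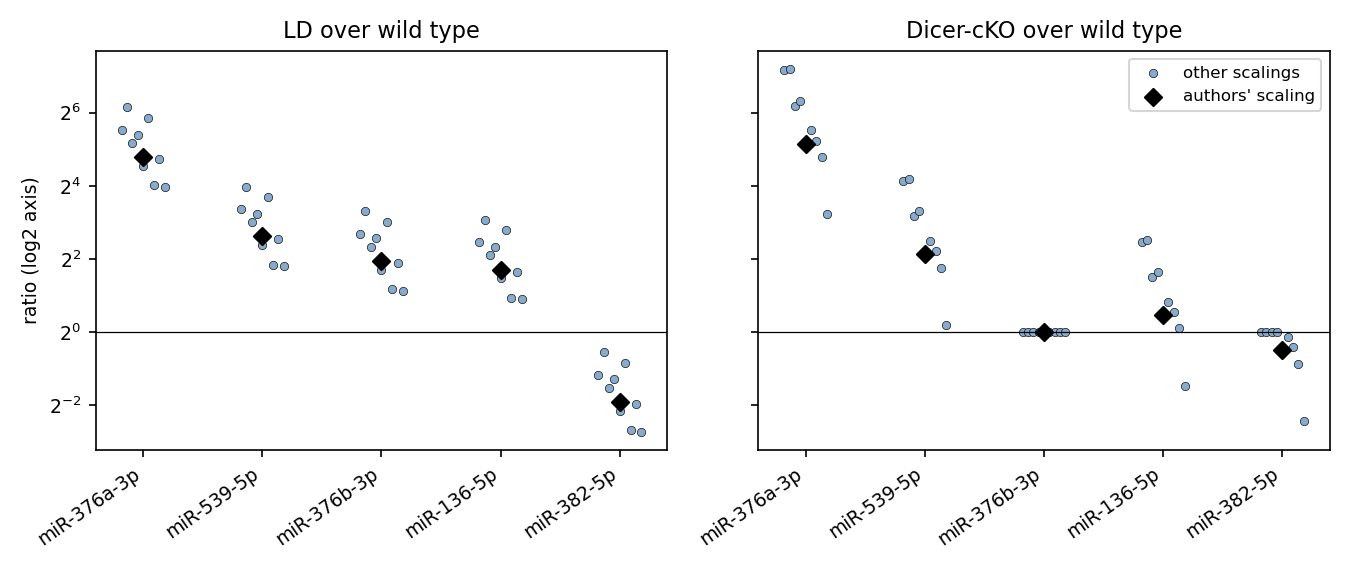
Ratio to wild type (log2 axis) of 5 members after LD (left) and in the Dicer-cKO sample (right) under the authors' scaling (black diamonds) and 9 other scalings (blue points); values under a limit are taken at the limit, and a ratio of 1 means that no fold can be given. miR-376a-3p and miR-539-5p lie above 1 in both panels, and miR-382-5p lies below 1 on the left.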

How the data were processed

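A single table of 626 rows was deposited. Its values are a normalized signal: nCounter counts that the authors had background-corrected in nSolver 4.0 and scaled to 4 housekeeping mRNAs (Actb, Gapdh, Rpl19 and B2m), with 8 negative and 6 positive controls. No aligner or genome was involved. The factor of each sample (1.15, 2.04 and 4.42 for wild type, LD and Dicer-cKO) was recovered from rows that keep decimals, and 100% of the miRNA values above the lowest came out as whole counts plus 1 fixed fraction per sample, with a tolerance of 0.51 normalized counts. In the wild type sample, whose factor is near 1, this has little power.

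The table holds miRBase identifiers without names. Hairpin names follow the list that defined the members, and arms and marker miRNAs were assigned from general knowledge of miRBase numbering. The arm of MIMAT0004747 (miR-411) was not assigned. RefSeq positions were found for the hairpins of all 35. The members, lists and rules were chosen with earlier results of these data known. Members above the limit in any sample were named, the 12 with the highest mean in full and the rest by range.

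Intervals are exact Clopper-Pearson intervals for ratios and shares and exact Poisson intervals for counts. They treat background-corrected counts as if nothing had been subtracted. Only the ratio intervals were tested, on simulated Poisson counts without background, which cannot show how background subtraction affects them. How much background was subtracted is not known. A value not above the limit (at least 3 counts) was taken at the limit in ratios, which are then bounds. No test was run, since a condition is 1 sample. Alternatives comprised 9 other scalings, other limits, folds and pseudocounts, and the sum without its most abundant member. Calculations used scipy 1.17.1, numpy 2.4.6 and pandas 2.3.3 under Python 3.11.15, and plots matplotlib 3.10.9.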

Additional observations from a re-analysis of the deposited data

How the results depend on the processing

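No paired analysis was possible because no condition had more than 1 sample. The planned addition of further miRNAs of the locus was not run, since identifiers outside the list could not be placed. The second highest negative control as limit and lowest values taken as 0 were added after seeing the data. The limit was highest in the Dicer-cKO sample, where a miRNA needed 171 normalized counts to be detected. That value rests on 1 control. With the second highest control the limit there was 13.3, compared with 21.2 in the wild type. The cause of the changes below was not tested, except that a limit or fold alters the counts by its construction.

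The number of members detected was 26 in the wild type, 18 after LD and 14 in the Dicer-cKO sample with the lowest value as the limit. With 2 times the highest control it was 8 in wild type and 1 in the Dicer-cKO sample, with 100 normalized counts 4 in the wild type, and with the second highest control 15 after LD and 13 in the Dicer-cKO sample. Without miR-376a-3p the sum was 1549 after LD and 1100 in the Dicer-cKO sample.

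The ratio of the summed count, in the order LD over wild type, Dicer-cKO over wild type and Dicer-cKO over LD, was 2.60, 5.61 and 2.15 with the same total miRNA count, 4.0, 5.76 and 1.44 with the same total without miR-720, 2.04, 2.88 and 1.41 with the geometric mean of the top 100 miRNAs, 2.38, 3.16 and 1.33 with the median of ratios, 3.27, 1.80 and 0.549 with Gapdh alone, 0.883, 0.366 and 0.414 without housekeeping scaling, and 1.06, 0.751 and 0.710 without miR-376a-3p. With Actb alone it was 1.32 after LD and 1.01 for Dicer-cKO over LD, with Rpl19 alone 0.910 and 1.63. With B2m alone it was 1.08 for Dicer-cKO over wild type and 0.723 for Dicer-cKO over LD. The sum was thus lower than in the wild type after LD with Rpl19 alone and without housekeeping scaling, and in the Dicer-cKO sample without housekeeping scaling and without miR-376a-3p.

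Members at least 2-fold higher after LD numbered 3 or 4 under the 9 scalings (3 with Rpl19 alone and without housekeeping scaling) and 7 with the lowest value as the limit. Those at least 2-fold lower after LD numbered 1 with the same total, the top 100, the median of ratios, 100 counts as the limit or a 3-fold threshold, 0 with the same total without miR-720, Gapdh alone or 2 times the control, 7 with Rpl19 alone or without housekeeping scaling, 14 with the lowest value and 9 with the second highest control as the limit. In Dicer-cKO MG, 1 was higher without housekeeping scaling or with 2 times the control, and 4 with the lowest value or the second highest control. Lower in the Dicer-cKO sample were 6 without housekeeping scaling, 11 with the lowest value and 7 with the second highest control.

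The median log2 change of the members after LD was 0.40 with the same total without miR-720, 0.12 with Gapdh alone, -1.73 without housekeeping scaling (panel -0.02, -0.30 and -2.16) and -1.97 with 100 counts as the limit. In Dicer-cKO MG it was 1.12 with the same total, 1.16 without miR-720 in it, 0.18 with the top 100, 0.31 with the median of ratios and -2.53 without housekeeping scaling. Over the panel the same medians were 0.61, 0.65, -0.35, -0.21 and -3.31. For single members, the ratio to wild type turned under another scaling in 1 case, miR-136-5p in the Dicer-cKO sample, 0.363-fold without housekeeping scaling. The ratio of Dicer-cKO to LD, an alternative added after seeing the data, turned for miR-136-5p with the same total (1.02) and for miR-376a-3p with Gapdh alone (0.790) and without housekeeping scaling (0.595). For miR-539-5p, whose interval includes 1, it was above 1 under 5 scalings.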
